A study of Mus musculus with 16 samples.

Results

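The transcriptomes of fully and partially reprogrammed induced pluripotent stem cell (iPSC) lines, named AI F and AI P, were compared gene by gene. Of the 16 cell lines in the series, 7 belong to this comparison. The 4 AI F lines were AI3, AI7, AI10 and GS32, and the 3 AI P lines were AI9, GS4 and GS9. Of the 22552 genes in the table, 11774 had a mean FPKM (reads scaled by transcript length and library size) of at least 1 over the 7 lines and were tested, with symbols of small RNA genes (Mir, Snord, Snora, Scarna and Rnu) left out.

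All 7 lines were made from adipocyte progenitor cells (APCs) of strain 129-M2rtTA, a background in which the reverse tetracycline transactivator makes the reprogramming factors inducible. The APCs came from mice that were themselves grown from iPSCs, so the factor genes were already in place and doxycycline was enough to induce them a second time. The study sorted the lines by tetraploid complementation, in which the injected cells must build the whole embryo. The other 9 lines of the series were nuclear transfer embryonic stem cell lines from APCs, 4 of them fully (AN F) and 5 partially (AN P) reprogrammed. Lines AI3, AI7, AI10 and AI9 were new and sequenced at passage 7, while GS32 (passage 13), GS4 (passage 17) and GS9 (passage 6) had been identified earlier. Each line was 1 clone with 1 library, so the spread within a group mixes differences between clones with technical error. The source entry of the sample records of GS9 and GS32 names GS4, against their titles, and each main count was also computed without each line.

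Pluripotency rests on a network of transcription factors (Oct4, encoded by Pou5f1, with Sox2 and Nanog) that silences the programme of the donor cell. Reprogramming can stop short of this state, or reach it with faults in the expression of imprinted genes, which are read from the maternal or the paternal copy alone. The imprinted Dlk1-Dio3 region carries maternally expressed non-coding RNAs (Meg3, also called Gtl2, Rian and Mirg) beside the paternally expressed genes Dlk1, Rtl1 and Dio3, and its silencing is a known fault of mouse iPSC lines.

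All 7 lines expressed the pluripotency markers, and the sum of fibroblast markers differed between lines. Pou5f1 was between 615 and 1222 FPKM in the 7 lines, and the summed FPKM of 7 pluripotency markers was 1850 to 2620 in AI F, 2260 in AI9, with 3720 in GS4 and 3130 in GS9. The sum over 10 fibroblast markers, which cells of a feeder layer also express, was 586 to 1300 in AI F, 1060 in AI9, with 309 in GS4 and 243 in GS9. Of the 10 markers, 7 were below every AI F line in GS4, 8 in GS9 and 0 in AI9, while Dcn was at 11.6 FPKM in GS4 against 3.44 to 11.5 in AI F and Lum was inside the AI F range in GS4 and GS9. The sum over 7 markers of adipocyte progenitors and adipocytes was 14.5 to 31.4 FPKM, with Ly6a at 7.84 to 22.0, Fabp4 at 1.80 to 3.66 and Adipoq at most 0.161. The FPKM values summed to 661973 to 722344 in AI F, 687061 in AI9, with 815102 in GS4 and 963434 in GS9. Total reads are not in the table. The most common ratio of low FPKM values placed the depth of the lines between 0.966 times (AI7 and GS9) and 1.27 times (GS4) that of AI3.

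AI9 had fewer genes outside the AI F range than GS4 or GS9. For each AI P line the share of genes outside the range spanned by AI F was counted. In AI9, 11.5% of genes lay above and 12.6% below that range, and 75.9% lay inside it. In GS4, 35.9% lay above and 28.2% below, and in GS9 40.3% lay above and 30.0% below. The mean Pearson correlation of log2(FPKM + 1) with the AI F lines, a description over 11774 genes, was 0.989 for AI9, 0.963 for GS4 and 0.962 for GS9, while the AI F lines correlated with one another at 0.981 to 0.985 on average. Among the AI F lines AI7 stood nearest to GS4 and GS9, with a mean correlation of 0.979 with that pair against 0.950 to 0.961 for AI3, AI10 and GS32.

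**Figure D1:**
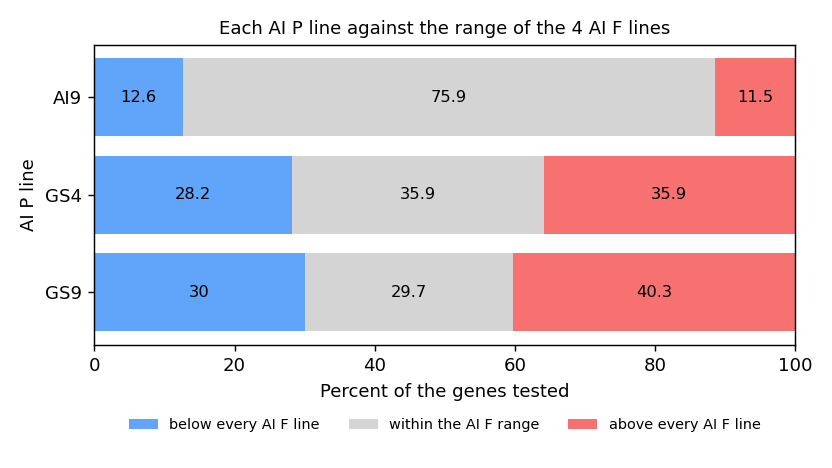
Percent of the 11774 genes tested (x axis) that lay below, within or above the span of the 4 AI F lines, in each AI P line (y axis). AI9 had 75.9% of its genes within the range, GS4 35.9% and GS9 29.7%.

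GS4 and GS9 also differed from AI F in the lengths of the genes involved. The difference from the AI F mean correlated across 11531 genes with exonic length, as a description, at a Spearman rho of 0.16 in GS4 and 0.32 in GS9, so that longer genes were lower in these lines. It was -0.03 in AI9. The same value for AI7 against the other AI F lines was 0.25, and in AI3, AI10 and GS32 it was between -0.16 and -0.04. Its part in the results was not tested.

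Taken as a group of 3, the AI P lines gave no gene past the threshold. In limma's test with Benjamini-Hochberg adjustment, 0 genes (0% of those tested) had an adjusted p under 0.05, and the smallest adjusted p was 0.496, shared by 1602 genes. Before adjustment, 562 genes (4.77%) had higher and 543 (4.61%) had lower levels in AI F at p under 0.05. With 1 line left out these numbers ranged from 106 and 196 (without GS9) to 1386 and 1744 (without AI9), and with derivation (new or earlier lines) as a term they were 79 and 135. For a single gene the exact permutation test of 4 against 3 lines cannot go below 0.0571.

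All 3 AI P lines lay on the same side of every AI F line for 551 genes. If the 35 splits of 4 against 3 lines were equally likely, a share of 0.0571 of all genes would do so. The 551 genes were below that share, so the count by itself shows no excess. The AI F lines were all the higher ones for 185 genes (1.57% of those tested) and all the lower ones for 366 genes (3.11%). Of these, 93 (0.79%) and 201 (1.71%) also had an unadjusted p under 0.05. Leaving out a line can only keep or raise these counts, and it also raises the share expected from equally likely splits. Without AI9 1830 genes were higher and 2463 lower, and without AI7 954 were higher and 1222 lower. Without GS4 the counts were 546 and 740, without GS9 374 and 550, and without GS32 366 genes were higher. The median exonic length was 4278 bases for the 182 genes higher in AI F that had a length, 3330 bases for the 356 genes lower, and 3676 bases for all genes tested.

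Rian and Meg3, of the Dlk1-Dio3 region, had the largest differences among the named genes higher in AI F than in all 3 AI P lines. Rian, a maternally expressed non-coding RNA that hosts small nucleolar RNAs (mm9 chr12:110842155-110899919, plus strand), was at 124 FPKM in AI3, 101 in AI7, 117 in AI10 and 113 in GS32. In AI9 it was at 46.7, in GS4 at 29.4 and in GS9 at 86.2. The AI F lines were within a narrow range, and GS9 was nearest to them. The difference of AI F from AI P was 1.19 ± 0.296 (SE, log2(FPKM + 1) scale, adjusted p = 0.496 in limma), and from AI9 alone 1.26 ± 0.444 (SE).

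Meg3, the maternally expressed non-coding RNA at the head of the same cluster (mm9 chr12:110779211-110809936, plus strand), followed with 119, 69.8, 86.5 and 92.1 FPKM in AI3, AI7, AI10 and GS32. In AI9 it was at 42, in GS4 at 27.7 and in GS9 at 53.3, so that the groups did not overlap. The log2 difference was 1.17 ± 0.239 (SE) between AI F and AI P, 1.09 ± 0.358 (SE) from AI9 and 1.21 ± 0.277 (SE) from GS4 with GS9. Within the new lines it was 1.08 (AI3, AI7 and AI10 minus AI9), and within the earlier lines 1.24 (GS32 minus GS4 and GS9).

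Of the paternally expressed genes of the region, Dlk1, which encodes a membrane protein that holds back adipocyte differentiation, was low but not overlapping. It was at 4.09, 1.76, 2.40 and 2.67 FPKM in AI3, AI7, AI10 and GS32 and at 1.60, 1.12 and 1.60 in AI9, GS4 and GS9. Its log2 difference was 0.58 ± 0.208 (SE, adjusted p = 0.496, limma). Rtl1, a gene derived from a retrotransposon that the placenta needs, had a mean below the filter. It was at 0.739 to 1.35 FPKM in AI F and 0.249 to 0.338 in AI P (exact two-sided permutation p = 0.0571, n = 4 and 3).

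The third non-coding RNA, Mirg, which carries a cluster of microRNAs, was left out of the test because its symbol starts with Mir. It was at 6.68 to 11.4 FPKM in AI F, 2.38 in AI9, with 2.43 in GS4 and 6.45 in GS9 (exact two-sided permutation p = 0.0571, n = 4 and 3), with GS9 just under GS32. Dio3, a deiodinase that inactivates thyroid hormone, was at 0.320 to 0.665 FPKM in AI F and 0.397 to 0.460 in AI P (exact permutation p = 0.629, n = 4 and 3). All 3 tested genes of the region were thus higher in AI F with no overlap, against 1.57% of all genes tested. They belong to 1 region, so they do not count as 3 independent results. Their median log2 difference was 1.17 against -0.04 over all genes tested. Small RNA genes lie within Meg3 and Rian, and the annotation and counting used for the table do not show how reads in them were assigned.

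In the nuclear transfer lines, which share no line with this comparison, the same genes gave a log2 difference between AN F and AN P of -0.24 for Meg3, -0.17 for Rian and -0.30 for Dlk1, with unadjusted p-values of 0.258, 0.39 and 0.0505 in limma.

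**Figure D2:**
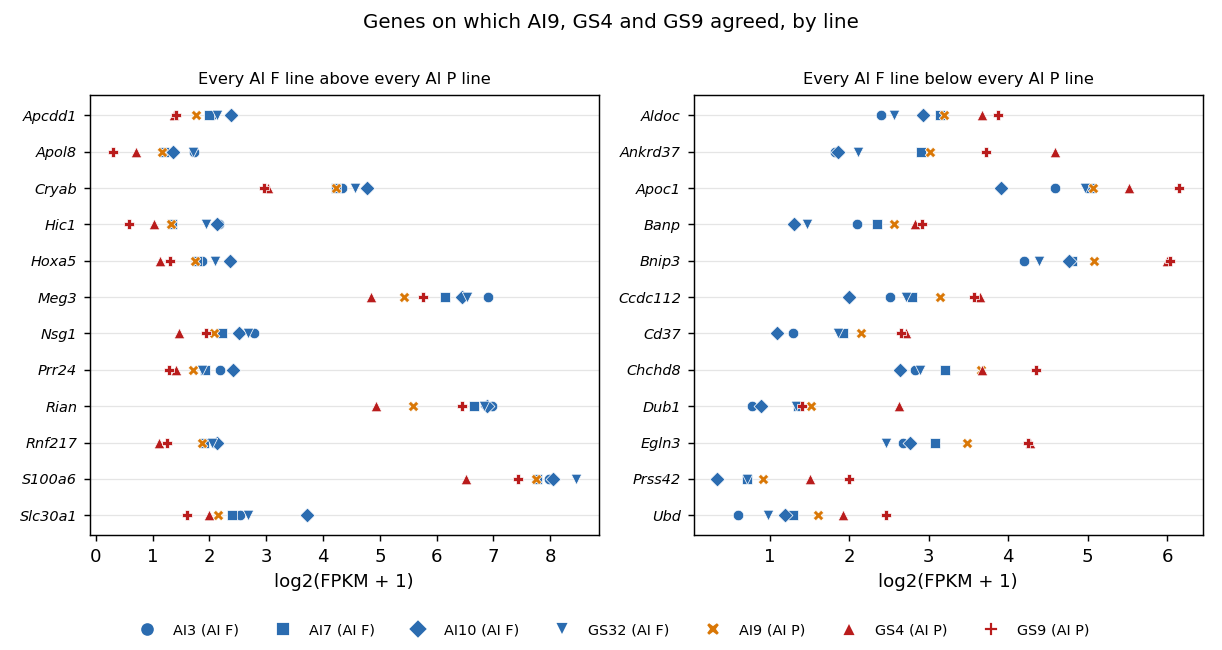
log2(FPKM + 1) (x axis) of the 12 genes higher and the 12 genes lower in AI F (y axis) with the largest differences among genes with no overlap and an unadjusted p under 0.05, 1 point per line. AI F points are blue, AI9 orange, GS4 and GS9 red. For most genes AI9 sits just outside the AI F range and GS4 and GS9 farther out, while for Rian and Meg3 AI9 sits between GS4 and GS9.

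The other named genes higher in AI F than in all 3 AI P lines came from several pathways. Cryab, a small heat shock protein of the lens and muscle, was at 17.8 to 26.5 FPKM in AI F, 17.6 in AI9, with 7.15 in GS4 and 6.81 in GS9, with a log2 difference of 1.07 ± 0.293 (SE) between the groups. AI9 was close to the lowest AI F line. Hic1, a transcriptional repressor that is often methylated in tumours, was at 1.52 to 3.48 FPKM in AI F, 1.51 in AI9, with 1.03 in GS4 and 0.504 in GS9. Hoxa5, a homeobox gene of the trunk, was at 2.44 to 4.13 FPKM in AI F and 2.35, 1.20 and 1.47 in AI9, GS4 and GS9. These genes were near the edge of the AI F range in AI9 and well below it in GS4 and GS9.

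S100a6, a calcium-binding protein of fibroblasts and other cells, was at 216 to 347 FPKM in AI F, 213 in AI9, with 91 in GS4 and 171 in GS9. Apcdd1, an inhibitor of Wnt signalling, was at 2.97 to 4.22 in AI F and 1.60 to 2.39 in AI P. Slc30a1, a zinc exporter, was at 4.28 to 12.1 FPKM in AI F and 2.06 to 3.44 in AI P, with AI10 alone above 5.41. Apol8, Nsg1, Prr24 and Rnf217 completed the 12, with AI F values between 1.30 and 5.91 FPKM and log2 differences of 0.63 to 0.77. The transcription factor Gata2, which acts in blood formation and the trophoblast, was at 1.82 to 2.01 FPKM in AI F and 0.994 to 1.48 in AI P.

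In the other direction, 4 of the 12 named genes (Ankrd37, Egln3, Bnip3 and Aldoc) are known to respond to low oxygen. The hypoxia-inducible factors, whose alpha subunits are marked for destruction by prolyl hydroxylases when oxygen is present, switch on glycolytic enzymes, glucose transporters and several of their own inhibitors. Of 25 genes in a list of hypoxia and glycolysis genes, 23 were lower in AI F, 6 with no overlap and 7 at an unadjusted p under 0.05, and none was higher by either measure. Over all genes tested 56.6% were lower, 3.11% with no overlap and 4.61% at that p. The list's median log2 difference was -0.30, against -0.04 over all genes. It was -0.10 against AI9 and -0.38 against GS4 with GS9. The group median was -0.14 under quantile normalization, where 5 genes did not overlap, and -0.18 without GS4. Without AI9 15 genes of the list did not overlap. Over all 11774 genes tested, 2463 were lower with no overlap without AI9, and 329 under quantile normalization.

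Egln3, one of these prolyl hydroxylases and itself induced by the factors (mm9 chr12:55279968-55304847, minus strand), was at 5.41, 7.46, 5.79 and 4.50 FPKM in AI3, AI7, AI10 and GS32. In AI9 it was at 10.2, in GS4 at 18.3 and in GS9 at 18.0. The log2 difference between AI F and AI P was -1.25 ± 0.224 (SE, adjusted p = 0.496, limma). Against GS4 and GS9 it fell past the threshold, at -1.51 ± 0.186 (SE, adjusted p = 0.0447, limma), but not under median-ratio scaling (adjusted p = 0.0539) or without AI3, AI10 or GS32.

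Bnip3, a mitochondrial protein of mitophagy and cell death (mm9 chr7:146082519-146101202, minus strand), was at 17.4, 26.9, 26.2 and 20 FPKM in AI3, AI7, AI10 and GS32, 32.8 in AI9, with 63.1 in GS4 and 64.8 in GS9. The difference of AI F from GS4 and GS9 was -1.48 ± 0.193 (SE, adjusted p = 0.0452, limma), and the adjusted p was 0.0535 under quantile normalization and 0.0539 under median-ratio scaling. Ankrd37, a small ankyrin repeat protein, had the largest difference of the list. It was at 2.54, 6.45, 2.63 and 3.30 FPKM in AI F, 7.08 in AI9, with 23.1 in GS4 and 12.2 in GS9, with a log2 difference of -1.60 ± 0.371 (SE) between the groups. In each of these 3 genes AI7 was the highest AI F line, and AI9 lay between AI F and the GS pair.

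Aldoc, an aldolase isoform, was at 4.27 to 7.82 FPKM in AI F and 8.16, 11.7 and 13.6 in AI9, GS4 and GS9. Ndrg1, a stress-response gene, was at 4.37 to 8.63 in AI F and 9.10 to 10.8 in AI P, and Egln1, the main oxygen-sensing prolyl hydroxylase, was at 9.52 to 13.5 and 13.6 to 15.5. For 8 further genes of the list GS4 and GS9 were above every AI F line with AI9 inside the range, against 15.7% of all genes. Among the 8 were the glycolytic enzymes Pgk1, Aldoa, Gapdh and Pgam1. Pgk1 was at 590 to 797 FPKM in AI F, 752 in AI9, with 1152 in GS4 and 951 in GS9. The glucose transporter gene Slc2a1 was the only list member above AI F in AI9 alone, at 304 FPKM against 151 to 277 in AI F, 259 in GS4 and 216 in GS9. In the AN lines the list's median log2 difference was -0.08, and none of its genes separated AN F from AN P in either direction. Over all genes tested, only 0.586% were higher and 0.722% lower in AN F with no overlap, so few would be expected in a list of this size.

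The promoters of these genes were read from RefSeq (GRCm38.p6), where 250 bases before the start site were available for 5 of the 6 genes lower with no overlap. The core of the hypoxia response element, ACGTG, and its variant GCGTG were searched on both strands, with overlapping matches counted. ACGTG was in 4 and GCGTG in 5 of the 6 promoter windows of these 5 genes. Over all 32851 windows of the same length, 16.6% held ACGTG and 28.2% held GCGTG, and over the 10785 windows of genes tested here the shares were 22.0% and 45.5%. Over the 33 windows of the tested hypoxia and glycolysis genes they were 39.4% and 57.6%. A match describes the letters and is not evidence of binding. The windows of the 3 genes with the largest differences are shown 5' to 3' on the strand of the gene, with both motifs and their reverse complements in capitals. They are Egln3 (GRCm38.p6 chr12:54203875-54204124, minus strand), Ankrd37 (chr8:45999851-46000100, minus strand) and Bnip3 (chr7:138909507-138909756, minus strand).
Egln3: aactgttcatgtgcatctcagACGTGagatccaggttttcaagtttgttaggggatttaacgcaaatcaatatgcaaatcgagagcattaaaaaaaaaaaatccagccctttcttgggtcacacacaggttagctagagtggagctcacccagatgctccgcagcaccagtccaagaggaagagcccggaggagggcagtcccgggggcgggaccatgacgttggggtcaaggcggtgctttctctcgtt
Ankrd37: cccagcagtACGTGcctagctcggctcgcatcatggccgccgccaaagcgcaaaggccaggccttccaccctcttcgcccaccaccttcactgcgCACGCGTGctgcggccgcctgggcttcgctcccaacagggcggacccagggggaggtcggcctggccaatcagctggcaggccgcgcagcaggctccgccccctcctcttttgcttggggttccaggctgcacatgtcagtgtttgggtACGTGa
Bnip3: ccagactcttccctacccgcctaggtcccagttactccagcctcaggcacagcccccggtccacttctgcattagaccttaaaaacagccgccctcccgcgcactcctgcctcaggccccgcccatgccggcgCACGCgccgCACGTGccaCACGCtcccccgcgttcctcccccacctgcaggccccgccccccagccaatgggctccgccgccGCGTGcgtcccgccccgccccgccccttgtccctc
Egln3 held 1 match of ACGTG and none of GCGTG, Ankrd37 held 2 of each, and Bnip3 held 2 of ACGTG and 3 of GCGTG.

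The other 8 of these 12 named genes were in none of the lists used. Chchd8, a mitochondrial protein of the coiled-coil-helix family, was at 5.24 to 8.18 FPKM in AI F, 11.6 in AI9, with 11.8 in GS4 and 19.3 in GS9. Its log2 difference was -1.0 ± 0.205 (SE, adjusted p = 0.496, limma), and AI9 and GS4 had nearly the same level. Banp, a nuclear protein that binds unmethylated CG-containing promoters, was at 1.47 to 4.08 in AI F and 4.89 to 6.51 in AI P. Ccdc112 was at 2.98 to 5.88 and 7.85 to 11.5, and Cd37, a tetraspanin of B cells, at 1.12 to 2.79 and 3.43 to 5.53. Ubd, a ubiquitin-like protein, was at 0.507 to 1.45 in AI F, 2.03 in AI9 and 4.53 in GS9.

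Apoc1, an apolipoprotein, was at 14.0 to 31.7 FPKM in AI F, 32.6 in AI9, with 44.9 in GS4 and 70.3 in GS9. Prss42, a protease, was at 0.257 to 0.642 in AI F and 0.880 to 2.99 in AI P, and Dub1, a deubiquitinase, at 0.710 to 1.55 and 1.65 to 5.17. AI9 and, for Dub1, GS9 were close to the highest AI F line. Dub1 belongs to a family of near-identical genes, and its value is uncertain. Klf4, a reprogramming factor and naive pluripotency gene, was at 39.6 to 55.7 in AI F and 56.8 to 58.5 in AI P, with a log2 difference of -0.20 ± 0.144 (SE, unadjusted p = 0.189, limma). Of 18 other paternally expressed imprinted genes 2 were also lower with no overlap, against 3.11% of all genes. These were Zrsr1, at 5.02 to 6.98 FPKM in AI F and 7.32 to 9.72 in AI P, and Peg10, at 22.7 to 49.9 and 50.6 to 53. Mbd4, a glycosylase that repairs mismatches at methylated CG sites, was at 3.35 to 5.67 in AI F and 6.02 to 7.15 in AI P.

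GS4 and GS9 were next compared with AI F with AI9 as a level of its own. In this fit 13 genes (0.11% of those tested) were higher and 6 (0.051%) lower in AI F at an adjusted p under 0.05, against 1387 and 1743 at an unadjusted p under 0.05. AI F against AI9 gave 0 genes (0%) at the adjusted threshold and 19 higher and 12 lower at the unadjusted one, with AI9 as a single line whose spread was assumed to be that of the others. The number of 19 calls was 1 under median-ratio scaling and 8 under quantile normalization. It was also 1 to 3 without AI3, AI10 or GS32, 854 without AI7, 1236 without GS4 and 170 without GS9. Both comparisons share the AI F lines.

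Grb10 had the largest of these differences and the smallest adjusted p. It encodes an adaptor protein that restrains signalling by insulin and growth factor receptors and is imprinted, with maternal expression in most tissues (mm9 chr11:11830511-11938686, minus strand). It was at 54.9 FPKM in AI3, 36.9 in AI7, 44.9 in AI10 and 45.6 in GS32. AI9, with 53 FPKM, was within that range, and GS4 and GS9 were at 8.28 and 6.60.

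The log2 difference of AI F from GS4 and GS9 was 2.46 ± 0.179 (SE, adjusted p = 0.00394, limma). Over the alternatives run for Grb10 the adjusted p was between 0.00261 and 0.0393. Derivation and passage were not run as terms in this fit. The difference of AI F from AI9 was -0.23 ± 0.232 (SE). Grb10 was the only gene (0.00849% of those tested) at an adjusted p under 0.05 between AI9 and the GS pair, at 2.68 ± 0.254 (SE, log2, adjusted p = 0.0334, limma), and it lost that call without GS32 or without GS9. Against all 3 AI P lines together the log2 difference was 1.56 ± 0.570 (SE, adjusted p = 0.496). In the nuclear transfer lines Grb10 was at 36.8 to 46.1 FPKM in AN F and 8.89 to 33.0 in AN P, with no overlap. Of all genes tested, 0.586% were higher in AN F with no overlap. The log2 difference of Grb10 there was 0.95 (unadjusted p = 0.0091, adjusted p = 0.605, limma). The study had picked Grb10 from sequencing of these same AI and AN lines.

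Another 12 genes rose in AI F against GS4 and GS9, and each of the 12 lost its call under median-ratio scaling. Vim, the intermediate filament of mesenchymal cells, was at 631, 432, 631 and 575 FPKM in AI3, AI7, AI10 and GS32, 528 in AI9, with 204 in GS4 and 179 in GS9, a log2 difference of 1.55 ± 0.187 (SE, adjusted p = 0.0447, limma). Acta2, smooth muscle actin, was at 314 to 611 FPKM in AI F, 528 in AI9, with 116 in GS4 and 137 in GS9. Actg2, the enteric smooth muscle actin, was at 79.2 to 162 in AI F, 153 in AI9, with 30.8 in GS4 and 30.4 in GS9. In each gene AI7 was the lowest AI F line and AI9 was inside the AI F range.

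Gsn, which severs actin filaments, Cav1, the caveolar coat protein, and Prkcdbp, its partner in caveolae, differed by 1.80, 1.76 and 1.54 on the log2 scale, with adjusted p-values of 0.0452 in limma. Anxa1, Capn2, Cryab, Klhdc8a, Nrp1 and Tgfbi made up the rest, at 1.36 to 1.65. Their direction was the same in 4 of 4 AI F lines. The fibroblast markers given above moved with these genes. Without Acta2, which is in both, their sum was 272 to 691 FPKM in AI F, 533 in AI9, 192 in GS4, then 107 in GS9. Dcn and Lum were not below AI F in GS4. Their part in the difference was not tested.

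Besides Bnip3 and Egln3, the genes that fell in AI F against the pair were Tdgf1, Apoa2, Fmr1nb and Mcts2, whose calls were also lost under median-ratio scaling. Tdgf1, a co-receptor of Nodal and a pluripotency marker, was at 506 to 555 FPKM in AI F, 543 in AI9, with 1001 in GS4 and 1134 in GS9, a log2 difference of -1.04 ± 0.140 (SE, adjusted p = 0.0452, limma). Apoa2, an apolipoprotein, was at 10.5 to 12.7 in AI F, 11.6 in AI9, with 23.5 in GS4 and 28.7 in GS9. Mcts2, an imprinted retrogene read from the paternal copy, was at 17.2 to 19.9 in AI F, 15.1 in AI9, with 39.2 in GS4 and 44.3 in GS9. Mcts2 has a parent gene of similar sequence, and reads may have been split between them.

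**Figure D3:**
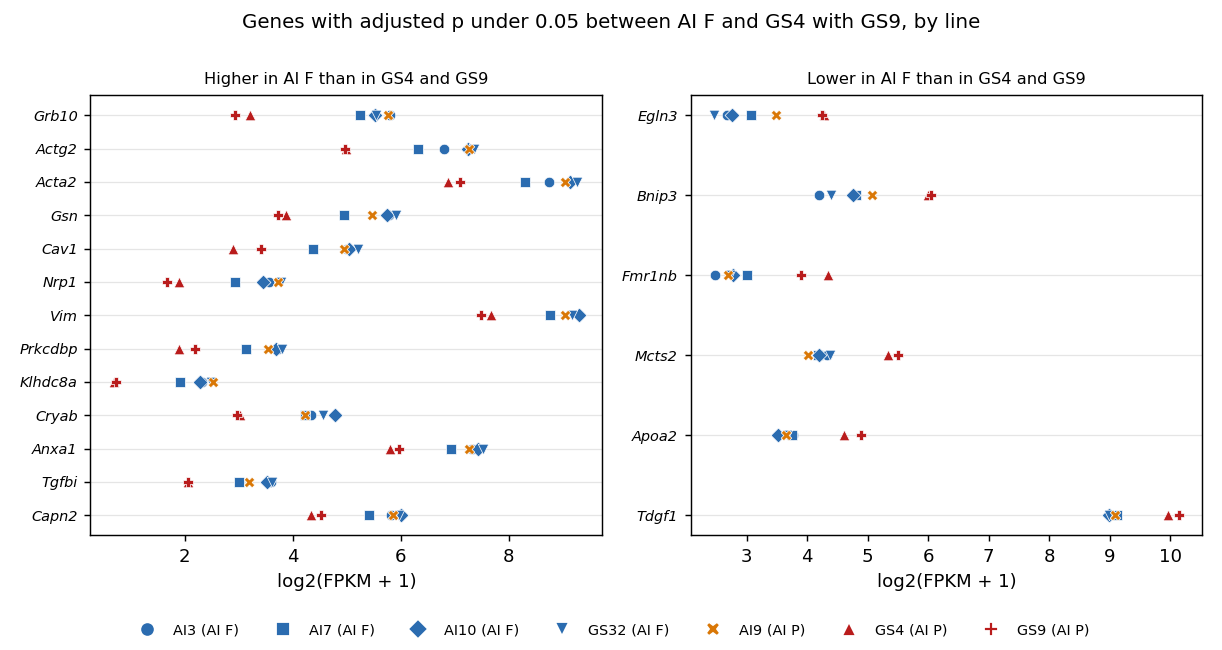
log2(FPKM + 1) (x axis) of the 13 genes higher and the 6 genes lower in AI F than in GS4 and GS9 at an adjusted p under 0.05 (y axis), 1 point per line. AI9 (orange) lies with the AI F lines (blue) for Grb10, Vim and Acta2, and between the groups for Bnip3 and Egln3.

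Many more genes set GS4 and GS9 apart without passing that test. Both lay below every AI F line, with AI9 inside the range, for 1508 genes (12.8%), and both lay above for 1843 genes (15.7%). Extracellular matrix genes were among those with the largest differences. Col1a1, the main chain of type I collagen, was at 230, 99.7, 213 and 231 FPKM in AI3, AI7, AI10 and GS32, 202 in AI9, with 65.3 in GS4 and 27.4 in GS9. The log2 difference was 2.09 ± 0.409 (SE, adjusted p = 0.0561, limma), and 2.38 with an adjusted p of 0.0128 without AI7. Col1a2, Fbn1 (fibrillin) and Thbs1 (thrombospondin) also had AI7 as the lowest AI F line, with differences of 1.89 to 2.01.

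Lbh, a transcriptional regulator, was at 21.0 to 64.4 FPKM in AI F, 33.3 in AI9, with 11 in GS4 and 8.15 in GS9. Amd1 was at 0.0184 FPKM in AI3 while the other AI F lines had 8.78 to 21.3, and it has near-identical copies, so its value is uncertain. In the other direction were Triml2, at 9.66 to 19.2 FPKM in AI F, 15.9 in AI9, with 71.2 in GS4 and 34.9 in GS9, and Ndufa4l2, a mitochondrial protein induced by low oxygen, at 0.763 to 2.15, 1.66, 11.8 and 4.10. Bst2, which tethers viruses to the cell surface, was at 40.4 to 68.5 in AI F, 50.6 in AI9, with 232 in GS4 and 79.1 in GS9. Cyct, the testis cytochrome c, Fam25c, Magohb, an exon junction protein, and Nhedc1 differed by -1.77 to -1.42 on the log2 scale with adjusted p-values of 0.0561 to 0.0685.

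Matrix and contractile genes were lower in GS4 and GS9 than in AI F and AI9. Of 21 collagen chains tested, 20 had the higher mean in AI F and 12 at an unadjusted p under 0.05 (4.77% over all genes), but none without overlap. GS4 and GS9 were below every AI F line, with AI9 inside, for 18 of the 21, a pattern shown by 12.8% of all genes. The list's median log2 difference was 1.00 for the group of 3, 1.39 against GS4 with GS9 and -0.06 against AI9. The count of 12 ranged from 0 without GS9, where the first median was 0.62, to 18 without AI9. It was 3 without AI3 or AI10, 4 without GS32, 2 without GS4 and 1 with derivation as a term. Over all 11774 genes tested, the number higher at that p was 106 without GS9, 1386 without AI9 and 79 with derivation as a term.

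Other matrix and adhesion genes (22 of 31 with this pattern), contractile genes (14 of 19) and fibroblast genes (16 of 25) were counted in the same way, beside the same 12.8%. Their medians against GS4 with GS9 were 1.09, 1.13 and 1.20, and against AI9 they were -0.10, -0.20 and 0.08. Within the earlier lines, where GS32 was compared with GS4 and GS9, the collagen median was 1.84, and within the new lines, AI3, AI7 and AI10 minus AI9, it was -0.12. The lists share members with one another and with the fibroblast markers above.

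Of 25 naive pluripotency genes 20 were lower in AI F than in AI P (56.6% over all genes) and 3 at an unadjusted p under 0.05 (4.61%), with a median log2 difference of -0.33, and of -0.52 against the pair and 0.01 against AI9. For 8 of them GS4 and GS9 were above every AI F line with AI9 inside, against 15.7% of all genes. Klf2, a Krüppel-like factor of the naive state, was at 29.4 to 59.7 FPKM in AI F, 52.5 in AI9, with 102 in GS4 and 75.6 in GS9. Pou5f1 was at 615 to 806 in AI F, 748 in AI9, with 1106 in GS4 and 1222 in GS9. These lines carry introduced factor genes, and the FPKM values do not show whether any reads of Pou5f1, Sox2 or Klf4 came from them. Lin28a, an RNA-binding protein of stem cells, had the opposite order, at 269 to 318 in AI F, 287 in AI9 and 228 and 247 in GS4 and GS9. In bulk samples fewer cells of a type and less RNA per cell cannot be told apart.

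Genes of the 2-cell-like state turned on GS4. The Zscan4 genes, which pluripotent cells express in brief bursts, were highest there, with Zscan4c at 12.8 FPKM in GS4 against 1.62 in GS9, 1.83 in AI9 and 0.219 to 2.1 in AI F. The Zscan4 genes are near-identical copies and their values are uncertain. The list's median log2 difference was -0.97 over 6 genes, and -0.30 without GS4. The filter mean included GS4, where these genes were high, and with no filter the median over 14 genes was -0.36. Germline genes kept silent by DNA methylation had a median of -0.32, with 12 of 13 lower in AI F. That median was -0.06 without GS4 and -0.22 with no filter. Sycp3, of the meiotic chromosome axis, was at 8.33 to 12.1 FPKM in AI F, 9.07 in AI9, with 15.8 in GS4 and 25.2 in GS9.

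Cytoplasmic ribosomal protein genes had a median log2 difference of -0.25, with 73 of 79 lower in AI F. In 4 the groups did not overlap, near the 3.11% of all genes, and 37 were above every AI F line in GS4 and GS9 with AI9 inside, against 15.7%. The median was -0.01 under quantile normalization and -0.10 without GS9. Mitosis genes had a median of -0.19, with 30 of 33 lower in AI F and 1 without overlap, close to the 3.11% of all genes.

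Imprinted genes outside the Dlk1-Dio3 region differed by line. Of 8 maternally expressed genes 6 were higher in AI F and 4 at an unadjusted p under 0.05 (4.77% over all genes), with a median log2 difference of 0.72, 0.94 against GS4 with GS9 and 0.02 against AI9. Without GS9 the median was 0.34. Besides Grb10, Igf2r, the receptor that removes Igf2, was at 16.9 to 28.2 FPKM in AI F, 24.2 in AI9, with 14.7 in GS4 and 11.1 in GS9, and Osbpl5 at 3.15 to 6.23, 4.94, 1.80 and 1.29. H19, the non-coding RNA beside Igf2, was at 193 to 304 in AI F, 145 in AI9, with 65.7 in GS4 and 209 in GS9, so that AI9 and GS4 were below AI F and GS9 was not. Of 18 paternally expressed genes 11 were lower and 7 higher, with a median of -0.04. Igf2, a fetal growth factor, was at 76.7 to 194 in AI F, 121 in AI9, with 31.6 in GS4 and 42.4 in GS9.

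**Figure D4:**
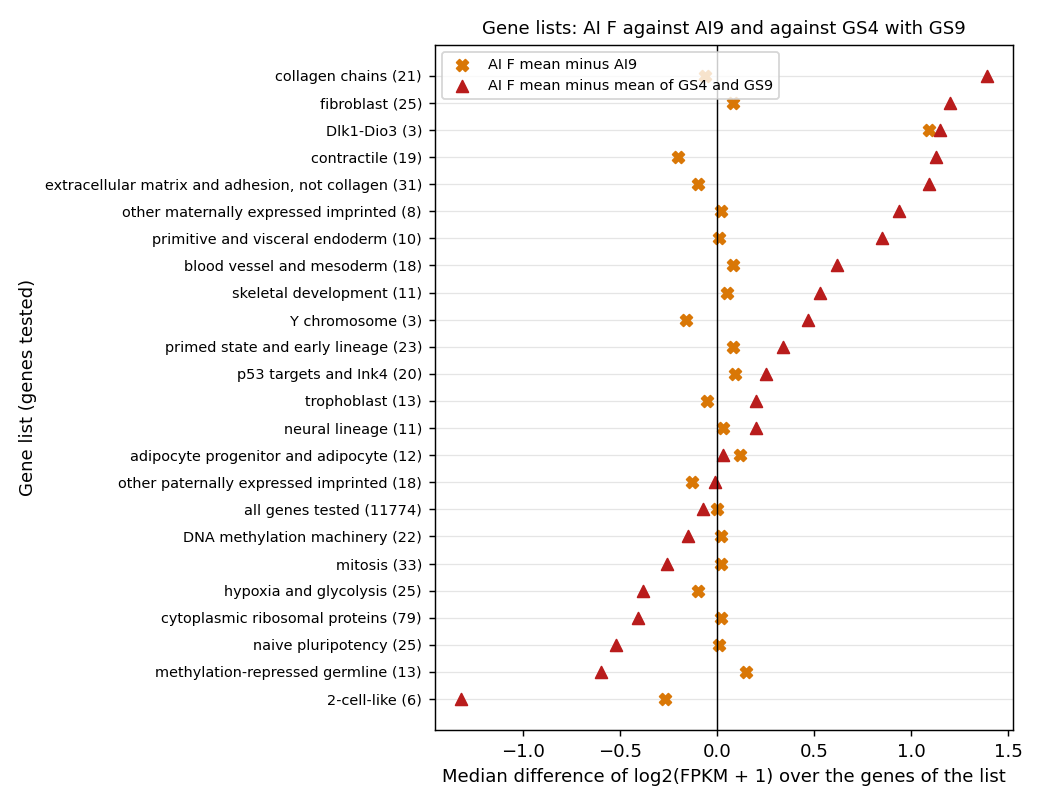
Median difference of log2(FPKM + 1) (x axis) over the tested genes of each list (y axis, number tested in parentheses), of the AI F mean from AI9 (orange crosses) and from the mean of GS4 and GS9 (red triangles). Collagen chains are at -0.06 and 1.39, hypoxia and glycolysis genes at -0.10 and -0.38, and the Dlk1-Dio3 genes at 1.09 and 1.15.

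Of the lineage lists, primitive and visceral endoderm genes had a median log2 difference of 0.61, with 5 of 10 higher in AI F at an unadjusted p under 0.05. It was 0.42 for blood vessel and mesoderm genes, with 6 of 18, and 0.36 for skeletal development, with 3 of 11, beside 4.77% of all genes. Against AI9 these medians were 0.01, 0.08 and 0.05. The 3 counts were 0, 1 and 1 without GS9, 1, 2 and 0 with derivation as a term, and 7, 10 and 5 without AI9. Over all genes tested the number higher at that p was 106, 79 and 1386 under the same alternatives. The other medians were 0.20 for the primed state and for neural genes, 0.13 for p53 targets, 0.11 for trophoblast and for adipocyte genes and -0.08 for the DNA methylation machinery. Of these, the primed state, trophoblast and DNA methylation lists changed sign under at least 1 of the alternatives. Col4a1 and Col4a2 counted in both the endoderm and the collagen list. With no filter the endoderm median was 0.20. The summed FPKM of 6 primitive endoderm markers was 2.35 to 4.15 in AI F and 1.21 to 2.18 in AI P, and none averaged 1 FPKM or more.

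AI9 alone lay outside the AI F range for a small share of genes. It lay below every AI F line, with GS4 and GS9 inside, for 176 genes (1.49%) and above for 128 (1.09%). This pattern needs GS4 and GS9 inside the range, where 35.9% and 29.7% of genes lay, which limits the count. Whatever the other AI P lines did, AI9 was above the range for 11.5% and below it for 12.6% of genes. Marcksl1, an actin-regulating protein, was at 293, 306, 313 and 226 FPKM in AI3, AI7, AI10 and GS32, 159 in AI9, with 233 in GS4 and 287 in GS9. The log2 difference of AI F from AI9 was 0.82 ± 0.229 (SE). Atp6v0c, a subunit of the proton pump of lysosomes, was at 16.1 to 30.0 in AI F, 9.47 in AI9, with 19.7 in GS4 and 20.5 in GS9.

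Cd34, an adipocyte progenitor and blood stem cell marker, was at 2.45 to 4.60 FPKM in AI F and 1.77 in AI9, and Ddx28, a mitochondrial RNA helicase, was at 7.33 to 12.8 and 6.48. Slc35d3 (0.327 FPKM in AI9) and Rnaset2b (0.125), which has a near-identical copy, were also lower there. Above AI F in AI9 were Slc2a1, Pdgfb, a growth factor, at 4.86 FPKM against 1.16 to 4.63, Thap3 at 7.76 against 3.51 to 7.54 and Wdr54 at 2.73 against 1.14 to 1.84. Rps27 was at 7.39 to 481 FPKM within AI F and at 483 in AI9, and this ribosomal protein gene has processed copies, so its value is uncertain. Most of these gaps were small beside the spread within AI F, and none passed the adjusted threshold.

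The nuclear transfer lines were compared over the same genes. Of the genes tested, 69 (0.586%) were higher in every AN F line than in every AN P line and 85 (0.722%) were lower, and 0 passed an adjusted p under 0.05 in limma, against 400 and 382 at an unadjusted p under 0.05. Of the 185 genes higher in AI F with no overlap, 1 (0.541%) was higher in AN F with no overlap and 3 were lower. Of the 366 genes lower in AI F, 3 (0.82%) were lower in AN F and 2 were higher. Zrsr1, a paternally expressed splicing factor gene, was one of them, with a log2 difference of -0.43 in the AN lines.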

How the data were processed

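RNA-seq libraries of 16 mouse cell lines were made from total RNA and sequenced as single 50-base reads per the labels. The authors mapped reads to mm9 with TopHat2 (2.1.0) and calculated the deposited FPKM values with Cufflinks (2.2.1), and HTSeq is also listed in the submitters' processing notes. The annotation was an mm9 GTF file whose release, like the library normalization, is not given in the sources used here, and total reads are unknown. Groups came from the study's tetraploid complementation results, matched by sample title.

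Values were used as log2(FPKM + 1), a scale that understates changes of low genes, for genes whose FPKM averaged 1 or more in the 7 AI lines. limma (3.58.1, R 4.3.3) with a mean-variance trend was fitted to 2 groups (AI F, AI P) and to 3 levels (AI F, AI9, GS4 with GS9), with Benjamini-Hochberg adjustment over 11774 genes, and was tested on simulated data. A gene did not overlap when every AI F line was on one side of every AI P line. Single genes below the filter were tested by exact two-sided permutation. With 4 and 3 lines, p-values measure the spread between lines.

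The genes named were the 12 higher and 12 lower with the largest difference among genes with no overlap and an unadjusted p under 0.05, 8 and 8 that set GS4 and GS9 apart, 6 and 6 that set AI9 apart, all called genes, and members of the Dlk1-Dio3 region and of 23 gene lists. Klf4, Peg10, H19 and Zscan4c were named after their values were seen. Clone and predicted symbols were counted but not named. 1 gene that met the rule is not reported here. The members and lists were chosen with earlier results of these data known. Coordinates are from GENCODE M1 (mm9), and promoters from RefSeq (GRCm38.p6). Alternatives were another pseudocount, filter, scaling or variance model, derivation or passage as a term, and leaving out each line.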

Additional observations from a re-analysis of the deposited data

Results flagged for a closer look

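Within the 4 AI F lines, a line stood far from the other 3 for 5 of the values tested. Slc30a1 was at 12.1 FPKM in AI10 against 4.28 to 5.41 in the others, and Prss42 at 0.257 in AI10 against 0.630 to 0.642. Col1a1 was at 99.7 in AI7 against 213 to 231. The mean log2(FPKM + 1) of the collagen chains was 3.64 in AI7 against 4.30 to 4.42, and that of 3 Y chromosome genes 2.80 in GS32 against 3.27 to 3.34. Chance gives about 1 such value in 20 groups, and 76 groups were tested. For Slc30a1, Prss42 and Col1a1 the line that stood apart also sets an end of the AI F range given for these genes.

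Grb10 differed between the AI P lines. AI9 was 2.68 above GS4 and GS9 on the log2 scale (adjusted p = 0.0334, limma), with 53 FPKM against 8.28 and 6.60.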

How the results depend on the processing

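Genes at an unadjusted p under 0.05 numbered 355 higher and 359 lower with a minimum mean FPKM of 5, and 79 and 135 with derivation as a term. Genes without overlap numbered 119 and 212 with that minimum and 367 and 603 with no filter, where fewer or more genes were tested. Against GS4 and GS9 the 19 calls became 4 with no filter, 3 with small RNA symbols kept, 8 under quantile normalization and 1 under median-ratio scaling. AI9 against AI F gave 4 calls with no filter and 13 with small RNA symbols kept, and AI9 against GS4 and GS9 gave 4 and 16. The causes were not tested.

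Leaving out 1 line at a time gave 0 to 19 genes at an adjusted p under 0.05 between AI F and AI P, the 19 without AI9 and 1 without AI10. At an unadjusted p under 0.05 it gave 106 to 1386 higher and 196 to 1744 lower, and without overlap 217 to 1830 and 461 to 2463. The counts without overlap can only stay or rise when a line is left out. GS4 and GS9 against AI F gave 1 to 1236 calls, AI9 against AI F 0 to 1, and AI9 against GS4 and GS9 0 to 2. AN F against AN P gave 0 in every case.

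Of 808 values of named genes under the alternatives, 763 kept their direction and side of the threshold, 14 lost and 31 gained a call, and none changed direction. The 14 lost calls were those of Actg2 and Fmr1nb, which with Grb10 were the genes called against GS4 and GS9 among these values. All 19 calls of that comparison were then followed, an alternative added after the data were seen. Grb10 was called under all 14 alternatives run, which did not include derivation or passage as a term. It was the only one of the 19 still called with no filter, with small RNA symbols kept, under median-ratio scaling and without AI3, AI10 or GS32, and 8 were still called under quantile normalization. The medians of the gene lists under each alternative were added after the data were seen.

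No paired analysis was possible because the lines carry no replicate number that ties an AI F line to an AI P line. With 7 lines, 1 of them the only line of its kind, and no read totals, small differences could not be resolved. A single median SE was 0.167 on the log2 scale for AI F against AI P and 0.229 against AI9. Differences smaller than about 2 of these SEs could not be told from the spread between lines. Between AI F and AI P no larger difference passed the adjusted threshold either, with all 7 lines.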
